A study of Mus musculus with 15 samples.

Results

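The potassium channel genes described here are the protein-coding mouse genes whose symbols begin with Kcn, with Kcnj10 and Kcnj13 left out. The rule found 92 genes among the 54232 gene identifiers of the deposited count table. Of these, 74 had a mean of at least 1 CPM (counts scaled to a common library size, so that libraries can be set side by side) over the 15 libraries, and 81 had enough reads to be tested. RNA came from the striatum of mice aged 6 months of 3 genotypes, which the labels call KI-96 (n = 4), E1 (n = 4) and WT (n = 7), with 1 library per mouse and a separate mouse number for each. The study's title names Huntington's disease knock-in mice and toxicity from repeat-associated non-AUG translation; what E1 and KI-96 carry beyond those names, and the sex and strain of the mice, is not stated in the labels. No treatment is stated for any group, and the Huntington's disease gene Htt averaged 187 ± 40.4 CPM in KI-96, 142 ± 5.66 CPM in E1 and 179 ± 10.0 CPM in WT (SD). Every E1 library (135 to 148 CPM) lay below every WT library (169 to 197 CPM) for Htt, as for 0.799% of all genes tested. The KI-96 libraries (144 to 242 CPM) overlapped both groups. Htt did not pass the test in any comparison (adjusted p from edgeR's quasi-likelihood test of 0.862 for KI-96 against WT, 0.450 for E1 against WT and 0.212 for KI-96 against E1), and counts per gene do not show which allele was read.

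Potassium channels let potassium leave the cell and so pull the membrane towards rest. The letter after Kcn marks the subfamily. Voltage-gated pore subunits are a, b, c, d, h and q. Electrically silent subunits that assemble with the b subunits are f, g, s and v. Inward rectifiers are j and tandem-pore leak channels are k. Channels gated by calcium or sodium are m, n and t, and accessory subunits are ab, e, ip and mb. Striatal spiny projection neurons, the main cells of this tissue, are known for strong inward rectification and A-type current, which hold them silent between bursts of input. In bulk tissue, fewer cells of a type and less RNA per cell cannot be told apart.

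Pore subunits of this family share a selectivity filter, the loop that recognises potassium. A signature of 5 codons (threonine, any residue, glycine, tyrosine or phenylalanine, glycine) was searched in the coding sequences of GENCODE M21 (build GRCm38). It occurred in 64 of the 92 genes (69.6%), against 228 of all 21506 coding genes (1.06%). It occurred 2 times in 11 genes, all of them tandem-pore Kcnk genes. It was found in 0 of 5 Kcne and 0 of 4 Kcnip genes, which encode accessory subunits, and in 1 of 8 Kcnh genes, whose filters use other letters. A match is a description of these letters only. The stretches below come from pore genes among those that the comparisons turn on, plus Kcnj4, the pore gene with the highest level per length; each covers 15 codons of the coding strand, 5′ to 3′, with the 5 signature codons in capitals.

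Kcnj4: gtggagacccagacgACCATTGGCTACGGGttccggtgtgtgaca
Kcnj16: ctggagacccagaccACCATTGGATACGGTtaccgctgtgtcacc
Kcnj5: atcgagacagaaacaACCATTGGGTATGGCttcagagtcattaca
Kcng1: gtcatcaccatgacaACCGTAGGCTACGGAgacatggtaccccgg
Kcnf1: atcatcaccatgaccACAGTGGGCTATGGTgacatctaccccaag
Kcnb2: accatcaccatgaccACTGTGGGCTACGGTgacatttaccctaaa
Kcna2: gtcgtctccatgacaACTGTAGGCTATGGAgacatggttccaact
Kcnd1: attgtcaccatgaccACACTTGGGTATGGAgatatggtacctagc
Kcnh5: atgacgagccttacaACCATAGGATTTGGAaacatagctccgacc
Kcnk2, first pore: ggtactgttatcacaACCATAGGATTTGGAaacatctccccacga
Kcnk2, second pore: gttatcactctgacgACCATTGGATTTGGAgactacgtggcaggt

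The 11 stretches hold 10 different signatures, and Kcnh5 shares its 15 bases with the first pore of Kcnk2. The inward rectifiers lie at chr11:61022564-61071131 on the plus strand (Kcnj12), chr15:79483714-79505241 on the minus strand (Kcnj4), chr11:110968033-111027968 on the plus strand (Kcnj16) and chr9:32314707-32344350 on the minus strand (Kcnj5). Kcnq3 lies at chr15:65986387-66286642 on the minus strand. The silent subunits Kcng1 (chr2:168260117-168281736) and Kcnf1 (chr12:17172100-17176888) are also on the minus strand. Kcnb2 (chr1:15287254-15723750), Kcna2 (chr3:107101146-107115005) and Kcnd1 (chrX:7822289-7838280) are on the plus strand, and Kcnh5 (chr12:74897220-75177332) and Kcnk2 (chr1:189207930-189402273) on the minus strand. All stretches are exonic coding sequence.

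The libraries held 14678565 to 23373551 counts in KI-96, 18199927 to 19533231 in E1 and 17281603 to 26388542 in WT. The potassium channel genes took 0.554% to 0.675% of them in KI-96, 0.545% to 0.622% in E1 and 0.534% to 0.640% in WT. Spiny projection neuron markers such as Drd1 (162 to 336 CPM) and Ppp1r1b (894 to 2447 CPM) were present in every library. The mean log2 CPM of 12 cortical excitatory neuron markers was 6.02 in E1 replicate 2, 5.31 in E1 replicate 3 and 5.90 in WT replicate 3, against 2.03 to 3.41 in the other 12 libraries. Those 3 libraries stood apart from their groups. Some values of the comparisons with E1 are also given without them, and the other values are not. The summed level of 8 thalamus and pallidum markers was 186 CPM in KI-96 replicate 3 and 320.4 CPM in KI-96 replicate 4, against 67.5 to 148 CPM in the other 13 libraries.

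Levels between genes are compared per kilobase of exon, as means over all 15 libraries with their SD. The inward rectifier Kcnj4 (Kir2.3) headed the family with 97.7 ± 14.9 CPM per kilobase, followed by Kcnip2, the accessory subunit of A-type channels, with 95.2 ± 19.1. These neighbours did not differ beyond their spread. Kcnab2, a cytoplasmic subunit of Kcna channels, came next with 67.9 ± 12.6, clear of the next gene, Kcnab1, with 38.1 ± 6.30. Kcnab1, the A-type pore subunit Kcnd2 (37.6 ± 6.28) and the tandem-pore gene Kcnk1 (35.2 ± 4.64) lay within each other's SD.

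Among voltage-gated pore genes, the delayed rectifier gene Kcnb2 averaged 1.17 ± 0.309 CPM per kilobase. The Kcna genes, which encode channels best known from axons, ran in the order Kcna1 (24.2), Kcna2 (21.8), Kcna4 (17.6), Kcna5 (13.0), Kcna6 (11.2) and Kcna3 (4.32), with Kcnab3 at 6.71 CPM per kilobase. The Kcnc genes of fast-spiking cells included Kcnc1 (22.6), Kcnc2 (7.22) and Kcnc4 (6.62). The A-type genes Kcnd3 (5.90) and Kcnd1 (3.17) were well below Kcnd2. Of the ether-à-go-go genes, Kcnh3 had 32.3 ± 5.26, Kcnh4 16.4, Kcnh2 11.6, Kcnh1 10.2, Kcnh5 3.01, Kcnh7 2.71 and Kcnh6 1.22 CPM per kilobase. The M-current genes Kcnq3 and Kcnq5 had 20.6 and 14.3 CPM per kilobase.

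The silent subunits were led by Kcnf1 with 16.0 ± 7.17 CPM per kilobase, then Kcnv1 (12.0), Kcng1 (9.29), Kcns2 (9.23), Kcns1 (4.15), Kcng3 (2.93), Kcng4 (2.32), Kcns3 (1.22) and Kcng2 (0.798). Among inward rectifiers the ATP-sensitive channel gene Kcnj11 had 13.3 and Kcnj8 had 1.44 CPM per kilobase. The G-protein-gated genes were Kcnj9 (12.9), Kcnj3 (5.28), Kcnj6 (0.467) and Kcnj5 (0.374), and the strong rectifiers Kcnj2 and Kcnj12 had 9.68 and 5.87. Kcnj16, a subunit best known from glia and kidney, had 3.27, and Kcnj14 had 0.938. Kcnj3 shares 1621 of its 5215 exon bases with a gene on the opposite strand, and without knowing if reads were counted by strand its level is uncertain. The same holds for 24 other members, among them Kcna6 (2355 of 5945 bases) and Kcnk2 (604 of 4943 bases); Kcnk4 and Kcnab2 overlap a gene on their own strand.

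Tandem-pore genes after Kcnk1 were Kcnk2 (23.3 ± 6.13), Kcnk13 (6.46), Kcnk9 (4.18), Kcnk3 (4.02), Kcnk12 (2.77), Kcnk6 (1.44), Kcnk10 (0.690), Kcnk4 (0.655) and Kcnk5 (0.313 CPM per kilobase), the lowest of the 74. The sodium-activated channel gene Kcnt1 had 30.5 ± 5.16 and its relative Kcnt2 had 1.67. The large-conductance calcium-activated gene Kcnma1 had 10.4 ± 2.09, with its accessory genes Kcnmb2 and Kcnmb1 at 0.720 and 0.591. The small-conductance genes Kcnn3, Kcnn2 and Kcnn1 had 7.25, 3.40 and 3.03. The A-type accessory genes below Kcnip2 were Kcnip3 (29.5), Kcnip4 (7.55) and Kcnip1 (2.60). Low levels were also seen for Kcne1l (5.28), Kcnu1 (0.723), best known from sperm, and Kcnrg (0.691), which encodes a suppressor of channel assembly.

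The other 18 genes averaged under 1 CPM. Kcne4 was the highest of them with 0.844 CPM, and Kcnk16, known from the pancreas, had no read in any library. The remaining 16 were Kcna7, Kcna10, Kcne1, Kcne2, Kcne3, Kcnh8, Kcnj1, Kcnj15, Kcnk7, Kcnk15, Kcnk18, Kcnmb3, Kcnmb4, Kcnn4, Kcnq1 and Kcnv2. Over the 15 libraries, Kcns2 was the steadiest of the 74 expressed genes, with its highest library 1.49 times its lowest. Kcng4 was the least steady, running from 0.512 CPM in E1 replicate 1 to 18.3 CPM in KI-96 replicate 4.

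**Figure D1:**
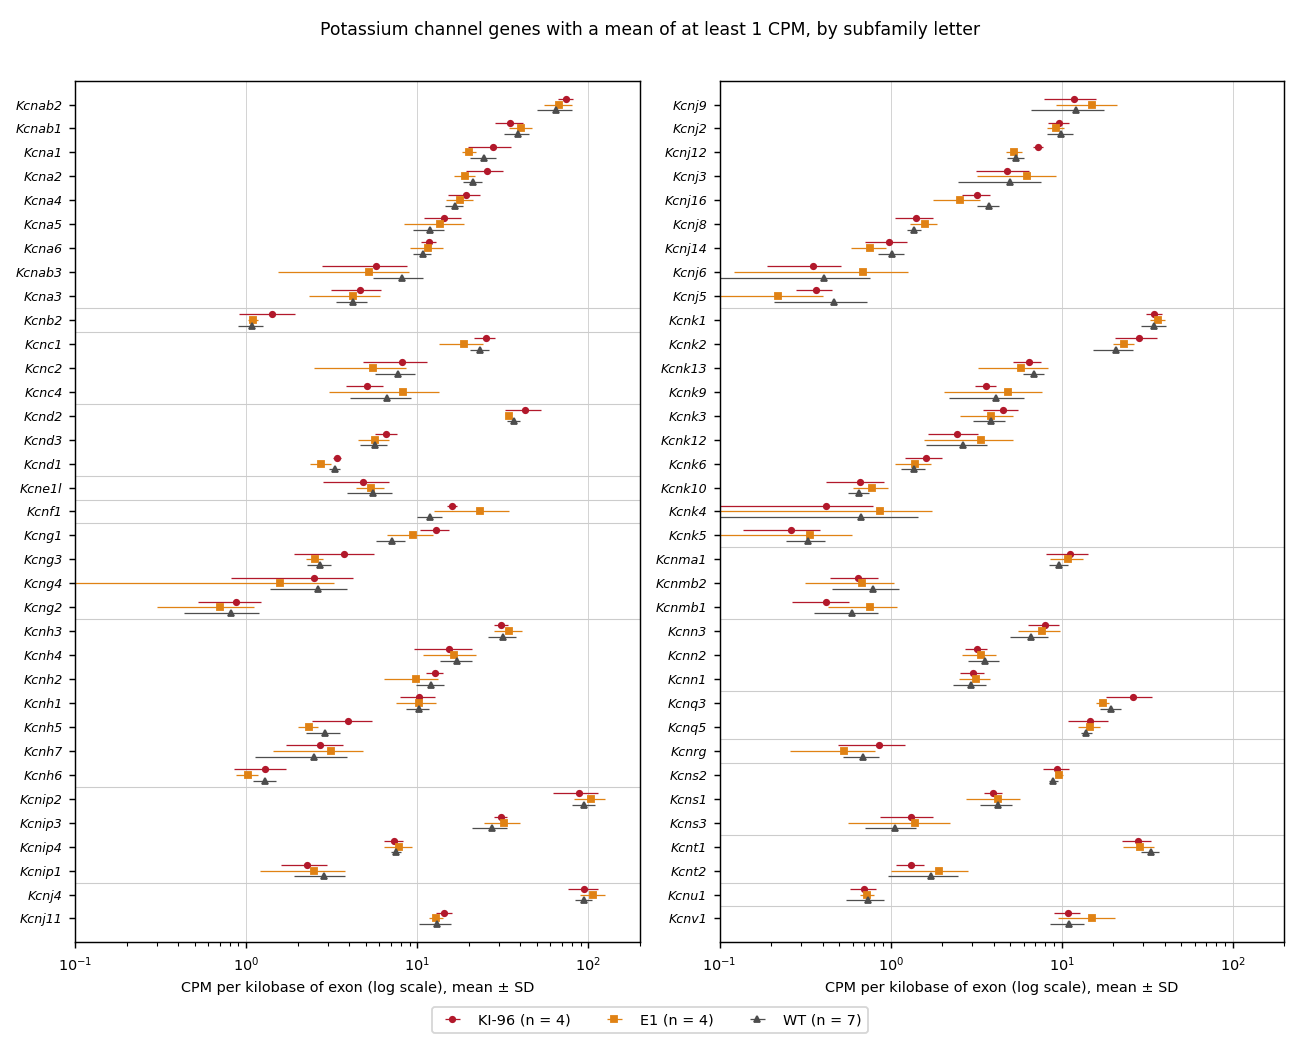
Level of 70 potassium channel genes with a mean of at least 1 CPM, as CPM per kilobase of exon on a log axis, with 1 row per gene and horizontal lines between subfamily letters. Points are group means and bars are SD (KI-96 n = 4, E1 n = 4, WT n = 7; bars that reach 0 are cut at the axis limit); Kcnj4 and Kcnip2 lie furthest to the right, and Kcnk5 and Kcnj5 have the lowest means.

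The comparison of KI-96 with WT asks whether the KI-96 striatum differed from that of WT. The silent subunit gene Kcng1 and the inward rectifier gene Kcnj12 (Kir2.2) were higher in every KI-96 library than in any WT library, but no potassium channel gene passed the test after adjustment. Of 81 members, 0 were called by edgeR's quasi-likelihood test at an adjusted p under 0.05 (background over all 18278 genes tested, 0%). At an unadjusted p under 0.05 there were 7 (8.64%, background 10.5%), all of them higher in KI-96 (background 5.8% higher, 4.68% lower). DESeq2 called 2 members, Kcng1 and Kcnj12 (background 0.392%), and limma-voom called 0 (background 0.00547%).

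Kcng1 had 65.8, 53.6, 68.8 and 44.1 CPM in KI-96, against a lowest, median and highest value of 21.8, 30.7 and 40.4 CPM in WT. The groups did not overlap, and Kcng1 differed by 0.86 on the log2 scale (SE 0.19, adjusted p = 0.241 by edgeR, 0.0142 by DESeq2 and 0.0142 to 0.991 over all alternatives). Kcnj12, a strong inward rectifier, had 19.2, 19.0, 21.8 and 19.7 CPM in KI-96, against 12.3, 14.8 and 17.0 CPM (lowest, median, highest) in WT. Its groups did not overlap either, and the log2 fold change was 0.42 (SE 0.10, adjusted p = 0.275 by edgeR, 0.0359 by DESeq2 and 0.0359 to 0.991 over all alternatives). Kcng1 and Kcnj12 were the 2 of 81 members whose KI-96 libraries all lay above WT (2.47%, background 0.635%), and 0 members lay wholly below (background 0.651%).

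The M-current gene Kcnq3 came next, with 383, 344, 536 and 259.8 CPM in KI-96, against 235, 293 and 349 CPM (lowest, median, highest) in WT. KI-96 replicate 3 was the highest of the 15 libraries and KI-96 replicate 4 lay among the WT values (log2 fold change 0.41, SE 0.15, adjusted p = 0.376 by edgeR).

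Kcnk2, a mechanically gated leak channel gene, had 153, 146, 173 and 84.9 CPM in KI-96, against 68.7, 96.2 and 134 CPM in WT, with a log2 fold change of 0.45 (SE 0.20). Kcnb2 had 21.3, 18.9, 32.2 and 13.7 CPM in KI-96, against 13.3, 15.9 and 21.4 CPM in WT, with a log2 fold change of 0.39 (SE 0.17). Kcnh5 had 15.8, 13.6, 24.3 and 10.1 CPM in KI-96, against 6.81, 12.2 and 15.2 CPM in WT, with a log2 fold change of 0.45 (SE 0.21). In each of these 3 genes the groups overlapped, KI-96 replicate 3 was the highest library and KI-96 replicate 4 the lowest of its group. Their adjusted p by edgeR was 0.439, 0.439 and 0.467.

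Without KI-96 replicate 3 the log2 fold change was 0.20 for Kcnq3, 0.13 for Kcnb2 and 0.17 for Kcnh5, and without WT replicates 5 to 7, the 3 deepest libraries, it was 0.21 for Kcnk2, 0.27 for Kcnh5 and 0.27 for Kcnq3. Kcnj12 and Kcng1 were at 0.37 and 0.76 without KI-96 replicate 3 and at 0.45 and 0.69 without the 3 WT libraries. KI-96 replicate 3 also had the lowest microglial sum of all libraries (303 CPM against 355 to 491 in the other 14) and the lowest mitochondrial share (3.62% against 4.57% to 6.37%). For KI-96 against WT, 8 of 8 thalamus and pallidum markers had a positive log2 fold change (median 0.88). Their sum was highest in KI-96 replicate 4 (320.4 CPM), the lowest KI-96 library for Kcnq3, Kcnk2, Kcnb2 and Kcnh5. The part of these in the values above was not tested. Over all 81 members, 45 fold changes were above 0 (background 47.9% of genes), with a median log2 fold change of 0.04 (all genes -0.01).

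**Figure D2:**
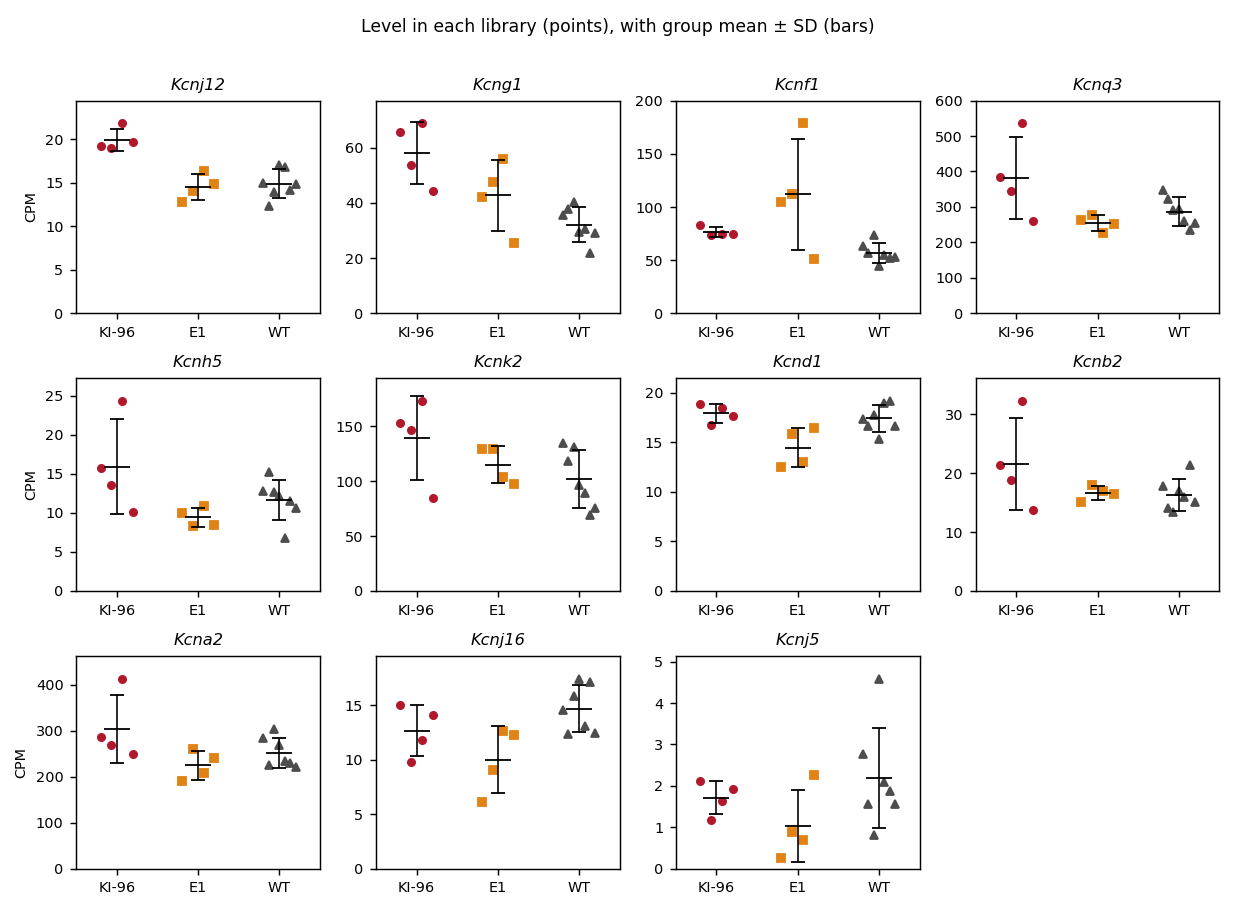
CPM of 11 potassium channel genes in each library (1 panel per gene, linear axis from 0), with KI-96, E1 and WT from left to right; points are libraries and bars are the group mean ± SD. Every KI-96 value of Kcnj12 (19.0 to 21.8 CPM) lies above every E1 and WT value, and in Kcnf1 the E1 libraries spread from 51.4 to 179 CPM.

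For E1 against WT, which uses the same WT libraries as the comparison above, Kcnf1 stood first. This silent subunit gene had 105, 113, 179 and 51.4 CPM in E1, against 44.7, 54.3 and 74.0 CPM (lowest, median, highest) in WT. E1 replicates 1 to 3 exceeded the whole WT range and E1 replicate 4 fell inside it (log2 fold change 0.98, SE 0.22, adjusted p = 0.383 by edgeR, 0.0142 by DESeq2 and 0.00297 to 0.968 over all alternatives). Of 81 members, 0 were called by edgeR (background 0.00547%), 1 by DESeq2 (Kcnf1; background 0.296%) and 0 by limma-voom (background 0.0109%). At an unadjusted p under 0.05 there were 7 (8.64%, background 8.75%), with 3 higher (background 3.69%) and 4 lower in E1 (background 5.06%). No member's groups were apart in either direction (background 0.892% higher, 0.799% lower).

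The other 2 members with an unadjusted p under 0.05 and a positive log2 fold change were Kcng1 and Kcnv1, both silent subunit genes; neither passed after adjustment. Kcng1 had 42.2, 47.7, 55.8 and 25.4 CPM in E1, against 21.8 to 40.4 CPM in WT (log2 fold change 0.42, SE 0.19, adjusted p = 0.550 by edgeR). Kcnv1 had 62.5, 95.0, 80.0 and 37.1 CPM in E1, against 38.8 to 70.1 CPM in WT (log2 fold change 0.45, SE 0.21, adjusted p = 0.569 by edgeR). In both genes E1 replicate 4 was the lowest of its group and the groups overlapped.

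Kcnj16 had 6.10, 9.04, 12.6 and 12.2 CPM in E1, against 12.3, 14.5 and 17.4 CPM (lowest, median, highest) in WT. All but 1 of the E1 libraries lay below the WT range (log2 fold change -0.55, SE 0.18, adjusted p = 0.473 by edgeR). The oligodendrocyte precursor markers, cells also known to express this gene, summed to 205, 194, 225 and 329 CPM in E1 and 233 to 321 CPM in WT. For E1 against WT, 6 of 7 of them had a negative log2 fold change (median -0.23). So did 10 of 10 mature oligodendrocyte (median -0.35), 8 of 10 astrocyte (-0.10) and 4 of 9 microglia markers (0.03). The part of these glial markers in the value was not tested. Kcnd1, an A-type pore gene, had 12.5, 15.8, 13.0 and 16.5 CPM in E1, against 15.4 to 19.2 CPM in WT (log2 fold change -0.27, SE 0.10, adjusted p = 0.486 by edgeR). Kcnj5, a G-protein-gated subunit, was near the lower end of detection with 0.256, 0.899, 0.692 and 2.26 CPM in E1, against 0.823 to 4.58 CPM in WT (log2 fold change -1.08, SE 0.47, adjusted p = 0.531 by edgeR). Kcnh8, under 1 CPM on average, was the last of the 4 members with a negative log2 fold change and an unadjusted p under 0.05 (adjusted p = 0.562 by edgeR).

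E1 replicates 2 and 3 and WT replicate 3 carry the high cortical markers. With all 3 left out, which leaves E1 replicates 1 and 4, the log2 fold change was 0.53 for Kcnf1, 0.14 for Kcng1 and 0.08 for Kcnv1. With all libraries and the cortical marker mean as a covariate it was 0.79 (SE 0.19), 0.29 and 0.24 in that order of genes. The part of these markers in the 3 genes' values was not tested. Without E1 replicate 4, Kcnf1 passed the test (log2 fold change 1.22, adjusted p = 0.00297 by edgeR), and Kcnj5 was at -1.83. That fit called 1 of the 81 members and 1.38% of all genes, so the member's share was near the background. Of the 81 members, 45 had a fold change above 0 (background 49.7%), and the median was 0.02 (all genes -0.00).

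The comparison of KI-96 with E1 takes its libraries from those above. Kcnj12 had the smallest p among the members, with 19.0 to 21.8 CPM in KI-96 and 12.8, 14.0, 16.4 and 14.9 CPM in E1. The groups did not overlap (log2 fold change 0.46, SE 0.12, adjusted p = 0.185 by edgeR, 0.0301 by DESeq2 and 0.0301 to 0.539 over all alternatives). Kcnd1 had 18.8, 16.7, 18.5 and 17.7 CPM in KI-96 and at most 16.5 CPM in E1, again without overlap (log2 fold change 0.31, SE 0.11, adjusted p = 0.262 by edgeR). These were the 2 members wholly higher in KI-96 (2.47%, background 2.29%), and 0 were wholly lower (background 2.5%). Of 81 members, 0 were called by edgeR (background 0%), 1 by DESeq2 (Kcnj12; background 1.25%) and 0 by limma-voom (background 0%), and 11 had an unadjusted p under 0.05 (13.6%, background 14.3%), 9 higher (background 7.84%) and 2 lower in KI-96 (background 6.42%).

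Kcnq3 had 383, 344, 536 and 259.8 CPM in KI-96 and 262, 278, 226 and 253 CPM in E1. Only KI-96 replicate 4 fell within the E1 range (log2 fold change 0.58, SE 0.17, adjusted p = 0.212 by edgeR). Kcnh5 had 10.1 to 24.3 CPM in KI-96 and 8.31 to 10.9 CPM in E1 (log2 fold change 0.75, SE 0.24, adjusted p = 0.228 by edgeR). Kcna2, an axonal low-threshold channel gene, had 287, 269, 413 and 249 CPM in KI-96 and 191, 261, 208 and 242 CPM in E1 (log2 fold change 0.43, SE 0.16, adjusted p = 0.256 by edgeR). In Kcnh5 and Kcna2 the lowest KI-96 library overlapped E1.

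Its relative Kcna1 (log2 fold change 0.46), Kcnc1 (0.41), Kcnd2 (0.32) and the lowly expressed Kcnh8 completed the 9 with a positive value. For KI-96 against E1, 8 of 10 striatal interneuron markers were also positive (median log2 fold change 0.35, 5 higher and 1 lower at an unadjusted p under 0.05), with sums of 343 to 561 CPM in KI-96 and 407 to 569 CPM in E1. The thalamus and pallidum markers were positive in 8 of 8 (median 1.13), with sums of 80.3 to 320.4 CPM in KI-96 and 67.5 to 99.6 CPM in E1. The part of either list in these values, Kcnc1 of fast-spiking interneurons included, was not tested. The 2 with a negative value were Kcnf1, with 83.5, 73.8, 74.2 and 74.3 CPM in KI-96 and 51.4 to 179 CPM in E1 (log2 fold change -0.55, SE 0.25), and the accessory gene Kcnmb1 (log2 fold change -0.87, SE 0.41). The adjusted p by edgeR of these 6 genes lay between 0.274 and 0.348. With E1 replicates 2 and 3 and WT replicate 3 left out, the value of Kcnf1 was -0.04, while Kcnj12 was at 0.52 and Kcnq3 at 0.56. Without KI-96 replicate 3 the log2 fold changes were 0.37 for Kcnq3, 0.47 for Kcnh5, 0.25 for Kcna2, 0.27 for Kcna1 and 0.17 for Kcnd2.

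Leaving out 1 library made 1 of the 81 members pass in 2 cases, at backgrounds of 0.687% and 1.02% of all genes. Kcnq3 passed without KI-96 replicate 4 (log2 fold change 0.72, adjusted p = 0.0456 by edgeR, 0.0456 to 0.539 over all alternatives) and Kcnf1 without E1 replicate 4 (-0.79, adjusted p = 0.0373 by edgeR, 0.0373 to 0.96 over all alternatives). Over the 81 members, 43 fold changes were above 0 (background 49.4%), with a median log2 fold change of 0.02 (all genes -0.00).

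**Figure D3:**
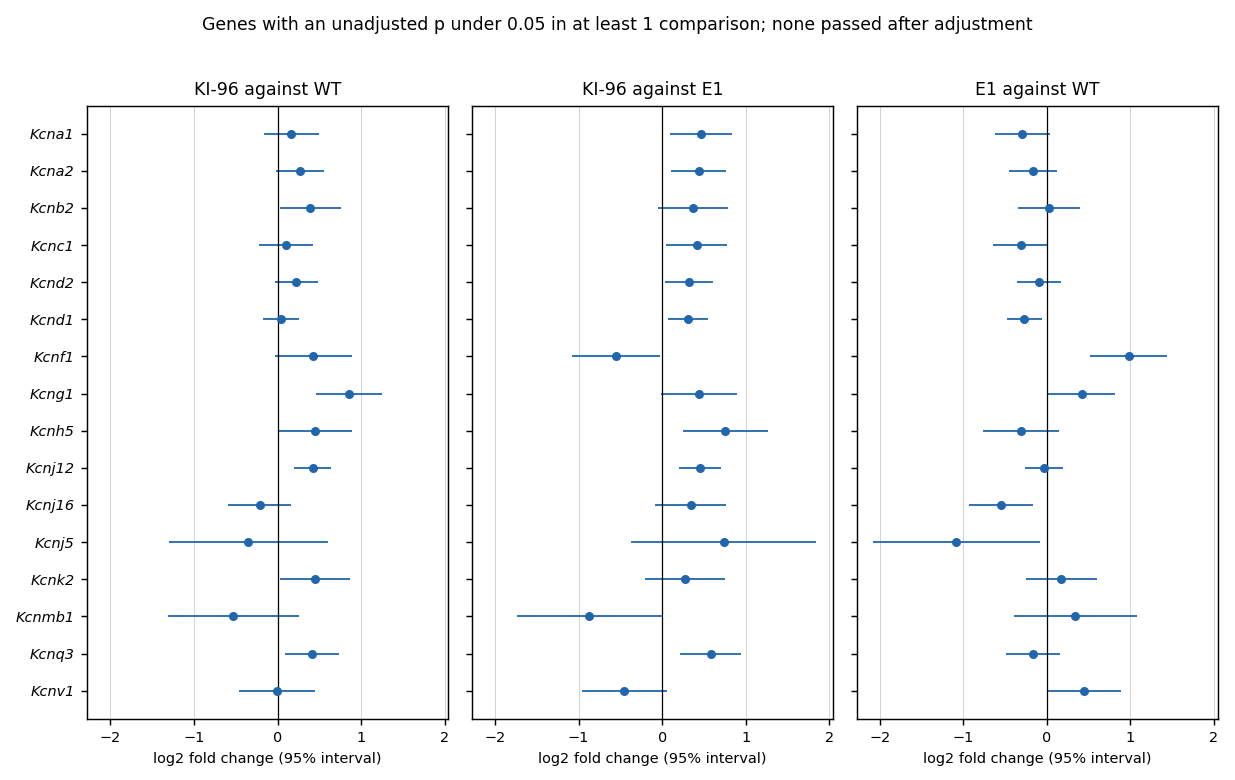
Log2 fold changes with 95% intervals from the edgeR fit for 16 potassium channel genes of at least 1 CPM that had an unadjusted p under 0.05 in at least 1 comparison, with panels for KI-96 against WT, KI-96 against E1 and E1 against WT. The vertical line marks no difference; the widest intervals are those of Kcnj5 and Kcnmb1, both under 5 CPM in every library, and none of the differences passed after adjustment.

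Most genes with the highest level per length in their subfamily had no unadjusted p under 0.05 in any comparison, Kcnc1, Kcnd2, Kcnf1, Kcng1 and Kcnv1 being among the exceptions. Kcnj4 had 226, 249.5, 173 and 168 CPM in KI-96, 278, 229, 231 and 182 CPM in E1, and 167, 204 and 233 CPM (lowest, median, highest) in WT, and the 3 groups overlapped. For KI-96 against WT the 95% interval of its log2 fold change ran from -0.26 to 0.28, and for E1 against WT from -0.09 to 0.46. Kcnip2 had 257, 422, 215 and 332 CPM in KI-96, 463, 361, 310.4 and 305 CPM in E1, and 249, 321 and 402 CPM in WT. Its intervals ran from -0.46 to 0.26 for KI-96 against WT and from -0.22 to 0.49 for E1 against WT, so differences of that size could not be detected or excluded.

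Kcnab2 averaged 414 ± 41.2 CPM in KI-96, 375 ± 70.1 in E1 and 361 ± 83.3 in WT (SD), with values of 359 to 457, 313 to 468 and 272 to 524 CPM in that order of groups. Kcnd2 averaged 220.0 ± 53.5 CPM in KI-96, 176 ± 6.63 in E1 and 188 ± 16.9 in WT. Both genes overlapped between all groups, and KI-96 replicate 3 held the highest value of Kcnd2 (284 CPM).

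Kcnk1 averaged 77.8 ± 8.48 CPM in KI-96, 81.1 ± 8.14 in E1 and 77.7 ± 13.3 in WT. Kcnh3 averaged 179 ± 16.2 CPM in KI-96, 198 ± 36.5 in E1 and 183 ± 34.7 in WT. Kcnt1 averaged 264 ± 50.8 CPM in KI-96, 272 ± 56.3 in E1 and 314 ± 37.4 in WT, with a low KI-96 replicate 1 of 191 CPM and a low E1 replicate 3 of 194 CPM. Kcnma1 averaged 189 ± 52.8 CPM in KI-96, 185 ± 39.9 in E1 and 164 ± 20.2 in WT.

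Kcnn3 averaged 83.1 ± 17.2 CPM in KI-96, 79.9 ± 22.2 in E1 and 69.2 ± 17.0 in WT, and Kcns2 averaged 52.2 ± 8.99, 53.9 ± 3.22 and 49.9 ± 2.99 CPM in those groups. Kcnc1, the leading gene of fast-spiking cells, averaged 237 ± 33.0 CPM in KI-96, 178 ± 52.2 in E1 and 221 ± 28.3 in WT. The low genes Kcne1l (7.47, 8.31 and 8.44 CPM in KI-96, E1 and WT), Kcnu1 (2.62, 2.72 and 2.74) and Kcnrg (1.55, 0.974 and 1.26) overlapped between all groups. For these leading genes, from Kcnj4 to Kcnrg, the adjusted p by edgeR lay between 0.524 and 0.998 for KI-96 against WT, between 0.594 and 0.993 for E1 against WT, and between 0.303 and 0.948 for KI-96 against E1.

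By subfamily, the tested members with a positive log2 fold change for KI-96 against WT were 7 of 9 Kcna and Kcnab genes, 3 of 3 Kcnd, 4 of 5 Kcnq, 5 of 11 Kcnk, 4 of 11 Kcnj and 1 of 4 Kcnip genes. For E1 against WT they were 5 of 9, 0 of 3, 4 of 5, 10 of 11, 5 of 11 and 3 of 4 of the same subfamilies. For KI-96 against E1 they were 8 of 9, 3 of 3, 4 of 5, 4 of 11, 6 of 11 and 0 of 4. In that order of comparisons, 5, 3 and 5 of 8 Kcnh, 3, 1 and 4 of 4 Kcng and 2, 3 and 0 of 3 Kcns genes were positive. The Kcne genes had 0, 0 and 0 of 3, Kcnc 2, 1 and 3 of 4, Kcnn 3, 3 and 1 of 4 and Kcnm 2, 2 and 2 of 4. Letters with fewer than 3 tested members are not listed here. Over all genes tested, 47.9%, 49.7% and 49.4% were positive in that order of comparisons. None of the members' values passed the edgeR test after adjustment, and the 3 comparisons share libraries.

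Single libraries set much of the spread. E1 replicate 1 was the lowest library for 25 of the 74 genes of at least 1 CPM (33.8%), while it was lowest for 10.4% of all 15495 genes of that level. Kcnc2, a gene of fast-spiking interneurons, had 8.30 CPM there and 25.7 to 92.2 CPM in the other 14 libraries. Kcng4 (0.512 CPM) and Kcnc4 (7.17 CPM) were also at their lowest in E1 replicate 1. The summed level of 10 striatal interneuron markers was 407 CPM in that library and 343 to 604 CPM in the other 14. Of these markers, Pvalb, Nos1 and Lhx6 were lowest in E1 replicate 1, and the others were lowest in other libraries. Pvalb ran from 8.71 to 123 CPM over the 15 libraries, Nos1 from 53.3 to 108 and Lhx6 from 18.1 to 31.7 CPM. The part of these markers in the 3 genes' values was not tested. KI-96 replicate 3 was the highest library for 19 of the 74 (25.7%, all genes 18.8%) and the lowest for 5 (6.76%, all genes 24.5%). WT replicate 3 was the highest for 15 (20.3%, all genes 6.46%) and the lowest for 7 (9.46%, all genes 7.11%).

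**Figure D4:**
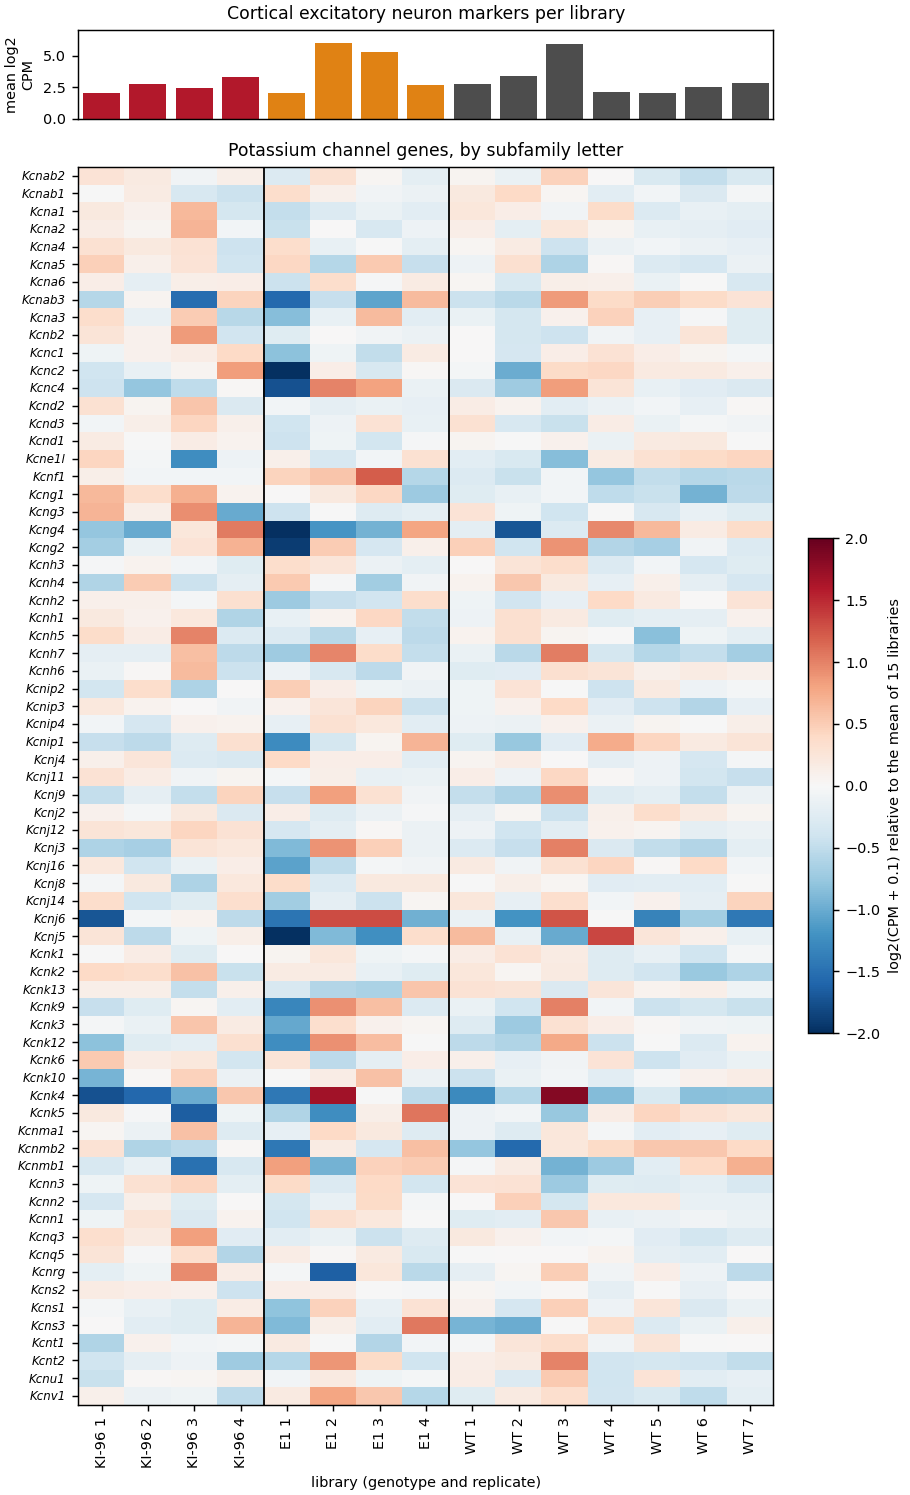
Level of each of 70 genes (rows, by subfamily letter) in each of the 15 libraries (columns, KI-96, E1 and WT from left to right), as log2 CPM with a small added constant relative to the gene's mean over the libraries; red is above and blue below that mean. The bars above give the mean log2 CPM of 12 cortical excitatory neuron markers, highest in E1 replicates 2 and 3 and WT replicate 3, where Kcnj6, Kcnk9, Kcnj3 and Kcnt2 are red; in E1 replicate 1, Kcnc2, Kcng4 and Kcnc4 are blue.

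E1 replicates 2 and 3 and WT replicate 3, the libraries set apart by their cortical markers, shared a set of potassium channel genes. In all 3 of them, 8 of the 74 genes (10.8%) were above every one of the other 12 libraries, where 2.98% of all genes of that level were, and 0 of the 74 were below (all genes 1.15%). Kcnj6, the G-protein-gated subunit with the largest gap, had 8.99 and 8.99 CPM in E1 replicates 2 and 3 and 8.70 CPM in WT replicate 3, against 1.02 to 3.77 CPM in the other 12. Kcnk9, a leak channel gene, had 97.3, 77.6 and 103 CPM in those libraries in the same order, against 20.7 to 52.6 CPM. Kcnc4 had 48.5, 42.6 and 43.2 CPM, against 7.17 to 29.1 CPM.

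Kcnj3, partner of Kcnj6 in the same channels, had 51.6, 38.4 and 55.5 CPM in E1 replicates 2 and 3 and WT replicate 3, against 14.9 to 32.9 CPM elsewhere. The other 4 were Kcnk12, Kcnt2, Kcnv1 and Kcnip3, of which Kcnip3, with 124, 142 and 138 CPM against 69.6 to 121 CPM, had the smallest gap. Slc17a7, the glutamate transporter of cortical excitatory neurons, ranged from 5.97 to 914 CPM over the 15 libraries, and the 12 cortical markers had reads in every library. The part of cortical tissue in these 8 genes was not tested. Of the 3 libraries, 2 are E1 and 0 are KI-96; Kcnj6 ran from 1.02 to 3.77 CPM in KI-96, from 1.23 to 8.99 CPM in E1 and from 1.27 to 8.70 CPM in WT.

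**Figure D5:**
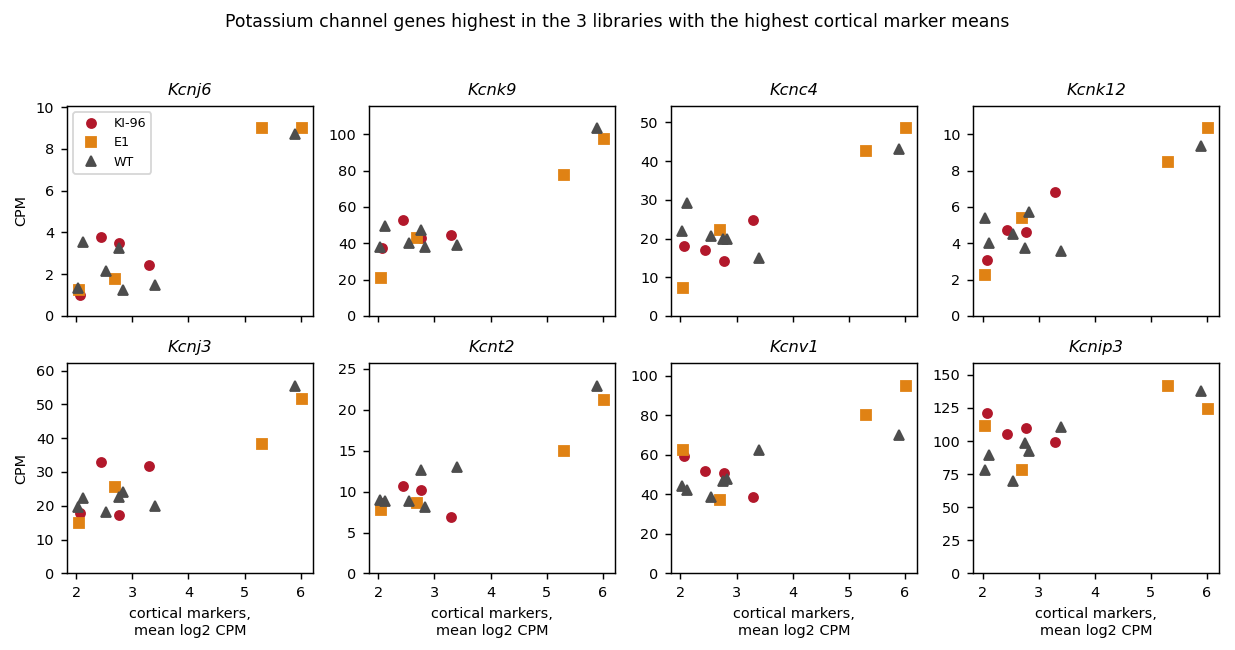
CPM of the 8 potassium channel genes that were higher in E1 replicates 2 and 3 and WT replicate 3 than in every other library, plotted against the mean log2 CPM of 12 cortical excitatory neuron markers, 1 point per library (n = 15, marked by genotype). The 3 libraries form a separate cluster at marker means of 5.31 to 6.02, and the other 12 lie between 2.03 and 3.41, so no correlation over all libraries is given.

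Genes of the same channel complexes whose symbols do not begin with Kcn were examined as a list of 13 partners, 12 of which were tested. By edgeR 0 partners passed in each of the 3 comparisons (background 0.00547% for E1 against WT and 0% otherwise). DESeq2 called 1 (Dpp6, KI-96 against E1, background 1.25%) and limma-voom 0 (background at most 0.0109%). At an unadjusted p under 0.05, KI-96 against WT had 3 of 12 higher (Dpp6, Lgi1 and Adam22; background 5.8%) and 1 lower (Lrrc26; background 4.68%). E1 against WT had 0 higher (background 3.69%) and 1 lower (Cntn2; background 5.06%), and KI-96 against E1 had 6 higher (background 7.84%) and 0 lower (background 6.42%). The median log2 fold change of the 12 was 0.11, -0.17 and 0.19 in that order of comparisons. Dpp6, the accessory subunit that speeds A-type channels of the Kcnd genes, had 338, 328, 343 and 294 CPM in KI-96, 249, 247, 241 and 257 CPM in E1, and 244 to 312 CPM in WT. KI-96 lay wholly above E1, as for 2.29% of all genes tested (log2 fold change 0.39, SE 0.10, adjusted p = 0.178 by edgeR). For KI-96 against WT the groups overlapped (0.27, SE 0.08, adjusted p = 0.343 by edgeR).

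Cntn2 and Cntnap2, which hold Kcna channels beside the node of the axon, averaged 342 ± 27.9 and 184 ± 49.9 CPM in KI-96, 244 ± 72.2 and 136 ± 18.2 CPM in E1, and 323 ± 49.3 and 161 ± 23.9 CPM in WT. Their log2 fold changes for KI-96 against E1 were 0.49 (SE 0.17) and 0.44 (SE 0.17), with adjusted p by edgeR of 0.252 and 0.275. The sulfonylurea receptor genes Abcc8, the partner of Kcnj11, and Abcc9, the partner of Kcnj8, averaged 20.9 ± 3.83 and 9.53 ± 0.610 CPM in KI-96, 22.5 ± 5.02 and 7.06 ± 1.08 CPM in E1, and 25.8 ± 5.14 and 8.33 ± 1.92 CPM in WT. Abcc9 had 8.75 to 10.0 CPM in KI-96 and 6.06 to 8.45 CPM in E1 without overlap (background 2.29% higher). Neither Abcc8 nor Abcc9 passed in any comparison. The markers of mature oligodendrocytes, which also express Cntn2, summed to 9127 to 14814 CPM in KI-96, 11386, 8209, 7086 and 16990.1 CPM in E1, and 11056 to 16033 CPM in WT, and Cntn2 had 225, 199, 201 and 351 CPM in the 4 E1 libraries. The part of these cells in the Cntn2 values was not tested.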

How the data were processed

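The authors deposited whole-number read counts per gene, 1 column per mouse and not normalized, for 15 striatal libraries. The submitters' processing notes name STAR, HTSeq, GRCm38 and DESeq2 1.24.0 without their roles; how strand was treated is not stated there. Gene symbols, exon lengths and coding sequences came from GENCODE M21 (GRCm38), to which 54165 of 54232 identifiers matched without their version. Genes were filtered by edgeR's default (minimum count 10), leaving 18278, and scaled by the trimmed mean of M-values. edgeR 4.0.16 fitted a robust quasi-likelihood model to all 15 libraries with genotype as the factor, tested two-sided with Benjamini-Hochberg adjustment over all genes and a threshold of 0.05. CPM uses the scaled library sizes; marker means are of log2 CPM with a prior count of 2. DESeq2 1.42.0 and limma-voom 3.58.1 were alternatives. The test was also run on simulated counts with known folds, and the outcome is not given here. Folds as small as most of those named above were not simulated.

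All 33 within-group library pairs differed beyond sampling noise (chi-square per degree of freedom at least 8.65; Spearman correlation 0.965 to 0.993). Pairs with KI-96 replicate 3 had a chi-square per degree of freedom of 67.1 to 120, against at most 41.9 in all other pairs. Replicate numbers of different genotypes were not taken as pairs.

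Members of at least 1 CPM are named with their level, except a few genes and sequences that are not reported here but count in the totals. Values by library or range are given for the 5 smallest p per comparison, the highest per length in each letter, and members whose groups do not overlap. The members and lists were chosen with earlier results of these data known. Genes named for a library pattern were chosen after their values were seen.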

Additional observations from a re-analysis of the deposited data

Results flagged for a closer look

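In each genotype, the highest or lowest library of 70 genes with a mean of at least 1 CPM was set against the others of its group by Dixon's criterion, and 16 of 210 groups passed it. Chance alone flags about 1 in 20, or 5%. WT replicate 3 was far above the other WT libraries in 10 genes: Kcnk4 (10.8 CPM, next 2.34), Kcnj6 (8.70, next 3.54), Kcnk12 (9.35, next 5.71), Kcnt2 (22.9, next 13.0), Kcnn1 (20.2, next 13.2), Kcnj3 (55.5, next 24.0), Kcnh7 (84.2, next 37.7), Kcnk9 (103, next 49.4), Kcnj9 (105, next 50.7) and Kcnma1 (206 CPM, next 171). The same library has high cortical markers, and their part in these values was not tested. WT replicate 2 was low in Kcnc2 (25.7 CPM, next 50.4). In KI-96, replicate 2 was low in Kcna6 (59.1 CPM, next 72.6), replicate 3 in Kcnk13 (14.4, next 21.5) and replicate 4 in Kcns2 (38.8, next 55.6), and replicate 1 was high in Kcnf1 (83.5 CPM, next 74.3). E1 replicate 2 was high in Kcnu1 (3.09 CPM, next 2.62).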

How the results depend on the processing

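Each comparison was refitted under 26 other settings: 8 other tools, scalings, filters or designs, 15 that leave out 1 library, and 3 chosen with earlier results in view or after seeing the data. DESeq2 called 1 member for E1 against WT (Kcnf1), 2 for KI-96 against WT (Kcng1, Kcnj12) and 1 for KI-96 against E1 (Kcnj12), where edgeR called 0. Over all genes DESeq2 called 53, 66 and 206 in these comparisons, where edgeR called 1, 0 and 0; the cause was not tested. It also called 1 partner gene, Dpp6, for KI-96 against E1. With E1 replicates 2 and 3 and WT replicate 3 left out, the members' median log2 fold change was -0.10 for E1 against WT and 0.20 for KI-96 against E1. With the cortical marker mean as a covariate it was 0.18 for KI-96 against E1. These medians moved by more than 0.0973, the SD between replicates of the members' median log2 level. That SD describes single libraries and is not the spread of a median fold change between groups. Leaving out 1 library gave 0 to 1 called members for E1 against WT and for KI-96 against E1, and 0 in each case for KI-96 against WT. The medians then ran from -0.03 to 0.06 for E1 against WT, from -0.02 to 0.07 for KI-96 against E1 and from 0.01 to 0.08 for KI-96 against WT. Called partner genes ran from 0 to 1 in the comparisons with E1, where Cntn2 passed without E1 replicate 4. Without that library 1.38% of all genes were called for E1 against WT and 1.02% for KI-96 against E1. Single log2 fold changes were followed only for members of at least 1 CPM with an unadjusted p under 0.05 by edgeR in the main fit. These kept their sign under every setting, which such a choice favours, and 7 values passed the threshold only under an alternative. The signs of the other members' fold changes were not followed.

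With the replicate number as a block, 0 members were called in each comparison. The deviations of same-numbered libraries from their group means had correlations of -0.10 to 0.19 (12 pairs, 5 of them over 0.1). Libraries with different numbers were not correlated for comparison, so these values do not decide whether the numbers mark pairs. The numbers were not taken as pairs in the main fit. Depth limits the low genes: Kcnj5 rests on 524 counts over all 15 libraries. With 4 libraries in each of KI-96 and E1, a p that misses the threshold does not show that levels were equal.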
